A study of Mus musculus with 24 samples.

Results

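The 40 genes described here encode proteins that copy DNA and separate chromosomes. They were taken by symbol from the deposited count table, where each symbol matched 1 of 53465 gene entries. Of these, 16 act mainly in S phase, when DNA is copied, and 20 act mainly in mitosis, when the copies are pulled apart. The other 4, Stmn1, Hmgb2, Ezh2 and Tubb5, serve dividing cells without belonging to 1 phase. The rule names the genes by symbol and uses no measured level, although results of these data were known when they were chosen.

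RNA was measured in natural killer (NK) cells, lymphocytes of innate immunity able to kill tumour cells, taken from B16F10 melanomas that had grown for 14 days under the flank skin of female wild-type B6 mice. Each library came from 100 sorted cells, and 4 populations had 6 libraries each: CD27+CD69+, CD27+CD69-, CD11b+CD69+ and CD11b+CD69-. No population received a treatment, and all 4 came from the tumour, so none stands for NK cells outside it. CD27, a receptor of the TNF receptor family, marks less mature NK cells. CD11b, an integrin chain, marks mature ones, and CD69 is a surface lectin of activated and tissue-held lymphocytes. The labels give the cell type as melanoma, while genes of NK identity were found in every library. Their sums ran from 17741 to 21001 CPM (counts scaled to the library total) in CD27+CD69+, 12457 to 20821 CPM in CD27+CD69-, 28718 to 34420 CPM in CD11b+CD69+ and 36710 to 39726 CPM in CD11b+CD69- libraries.

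A dividing cell first loads the MCM helicase onto origins of replication and then fires it, while enzymes of nucleotide synthesis supply the building blocks and the sliding clamp PCNA holds the polymerases on DNA. Genes for these steps are switched on by E2F factors late in G1. Genes for mitosis follow in G2, when the B-Myb and FOXM1 complexes act on promoters that carry CCAAT boxes and a CHR element. Their products are then degraded as cells leave mitosis, and resting cells repress them through the DREAM complex. In mice, NK cells divide most while they are immature, and CD27 is lost as CD11b+ cells mature.

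The promoters of 5 genes are printed to show the letters for which mitotic and S phase genes are known, of which the CCAAT box stands in all 5. Each run holds 160 bases before and 20 bases after the RefSeq start of the gene (GRCm38.p6), 5′ to 3′ on the strand of the gene. Capitals mark the CCAAT box (CCAAT, or ATTGG for the other strand), the CHR element (TTTGAA) and E2F motifs (TTTCCCGC, TTTGGCGC or TTTCGCGC), each searched on both strands. Ccnb2 (chr9:70421535-70421714, minus strand), Cdc20 (chr4:118437324-118437503, minus strand) and Cdk1 (chr10:69352893-69353072, minus strand) are mitotic genes. Mcm5 (chr8:75109349-75109528, plus strand) and Mcm6 (chr1:128359686-128359865, minus strand) are S phase genes.
Ccnb2: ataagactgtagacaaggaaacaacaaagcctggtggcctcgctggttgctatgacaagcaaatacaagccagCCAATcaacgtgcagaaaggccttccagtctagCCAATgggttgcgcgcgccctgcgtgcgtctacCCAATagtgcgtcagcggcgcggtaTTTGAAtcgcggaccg
Cdc20: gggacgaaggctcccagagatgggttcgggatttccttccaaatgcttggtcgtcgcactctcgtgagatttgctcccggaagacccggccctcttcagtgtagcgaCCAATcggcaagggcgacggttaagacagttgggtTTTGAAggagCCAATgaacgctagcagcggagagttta
Cdk1: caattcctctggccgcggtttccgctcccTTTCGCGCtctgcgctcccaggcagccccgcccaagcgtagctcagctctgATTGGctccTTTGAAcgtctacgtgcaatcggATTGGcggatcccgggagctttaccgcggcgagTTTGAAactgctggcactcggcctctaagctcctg
Mcm5: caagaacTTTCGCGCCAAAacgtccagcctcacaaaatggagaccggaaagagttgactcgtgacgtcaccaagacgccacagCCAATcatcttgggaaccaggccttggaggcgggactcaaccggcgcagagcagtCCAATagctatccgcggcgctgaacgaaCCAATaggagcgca
Mcm6: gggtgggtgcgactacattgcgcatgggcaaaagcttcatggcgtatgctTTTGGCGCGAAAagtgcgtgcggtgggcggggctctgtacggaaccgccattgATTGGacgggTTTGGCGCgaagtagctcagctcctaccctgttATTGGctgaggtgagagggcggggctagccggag

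The RefSeq table held promoters of 33 of the 40 genes, each from 250 bases before to 50 bases after the start. The CHR letters stood in the promoters of 11 of 16 mitotic genes and 2 of 14 S phase genes, against 17.9% of all 32851 promoters of this length. The CCAAT box stood in 14 of 16 mitotic genes and 10 of 14 S phase genes, against 37.4% of all promoters. An E2F motif stood in 1 of 16 mitotic genes and 6 of 14 S phase genes, against 1.84% of all promoters. Cdk1 was the mitotic gene with an E2F motif, and Mcm2 and Cdc45 were the S phase genes with CHR letters. In Mcm5 and Mcm6 a pair of E2F motifs on opposite strands overlap, so that the capitals run on. These matches describe letters and do not show binding.

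Total counts per library ran from 1213914 to 2671533, so that 1 count corresponded to between 0.382 and 0.825 CPM. CPM here are scaled to library size by TMM, and values are given as mean ± SD over 6 libraries unless stated. In this bulk measurement, fewer dividing cells and less RNA per dividing cell cannot be told apart. The labels do not say whether the 6 libraries of a population came from separate mice, and p-values here reflect no more than how these libraries vary. Replicate 4 of CD27+CD69+ stood apart with 652 CPM over the 20 mitotic genes, against 39.6 to 91.4 CPM in the other 5 libraries of that population. Melanoma markers passed 100 CPM in replicates 4, 5 and 6 of CD27+CD69-, at 304, 211 and 5982 CPM. Macrophage markers reached 302 CPM in replicate 6 of CD27+CD69-, and at most 40.2, 50.4 and 56.9 CPM in CD27+CD69+, CD11b+CD69+ and CD11b+CD69- libraries. Markers of fibroblasts and of T cells moved with the sort. Fibroblast markers summed to between 0 and 232 CPM in CD27+CD69+, 258 and 11989 CPM in CD27+CD69-, 0 CPM in CD11b+CD69+ and 0 and 8.02 CPM in CD11b+CD69- libraries. The defining genes Dcn, Lum, Pdgfra and Postn were at 0 in CD27+CD69+ and in both CD11b+ populations. In CD27+CD69+ libraries Col1a1 and Col1a2 were at 0 as well. T cell markers summed to between 720 and 1842 CPM, 303 and 1283 CPM, 53.8 and 196 CPM, and 19.5 and 83.6 CPM in the same 4 populations. Of these markers, Cd4 was at 0 in CD27+CD69+, Cd8a and Cd6 in CD11b+CD69+, and Cd4, Cd8b1 and Cd6 in CD11b+CD69- libraries. The T cell sums of CD27+ and CD11b+ libraries did not overlap, among CD69+ or among CD69- cells. In these 2 comparisons T cell RNA and the sort therefore cannot be told apart. The part of T cell RNA in the results was not tested.

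Transcripts of S phase genes were present in all 4 populations, while those of mitotic genes were most abundant in CD27+CD69- libraries and differed widely from library to library. The S phase genes summed to 1187 ± 211 CPM in CD27+CD69+, 1183 ± 396 CPM in CD27+CD69-, 962 ± 124 CPM in CD11b+CD69+ and 917 ± 107 CPM in CD11b+CD69- libraries. Their ranges overlapped in all pairs of populations. The mitotic genes summed to 165 ± 240 CPM in CD27+CD69+, 366 ± 264 CPM in CD27+CD69-, 53.2 ± 19.8 CPM in CD11b+CD69+ and 53.1 ± 30.7 CPM in CD11b+CD69- libraries. Without replicate 4 the CD27+CD69+ mean was 67.6 CPM.

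**Figure D1:**
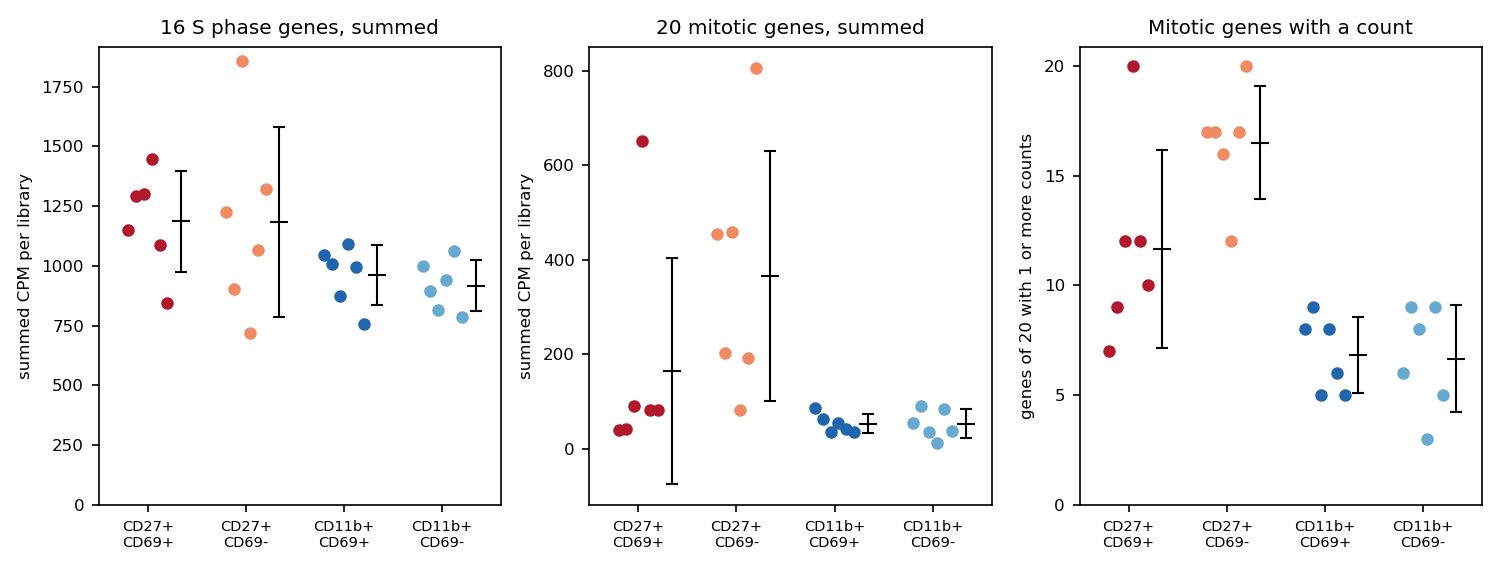
Summed CPM of the 16 S phase genes (left) and the 20 mitotic genes (middle), and the number of mitotic genes with at least 1 count (right), per library. Points are the 6 libraries of each population, and black bars give mean ± SD. The S phase sums overlap between all populations, while CD27+CD69- libraries reach 807 CPM of mitotic genes and CD11b+ libraries stay at or below 91.7 CPM.

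The mitotic sums had a lowest, median and highest value of 39.6, 82.9 and 652 CPM in CD27+CD69+ libraries and 82.6, 328 and 807 CPM in CD27+CD69- libraries. They were 35.1, 49.1 and 86.3 CPM in CD11b+CD69+ libraries and 12.6, 46.7 and 91.7 CPM in CD11b+CD69- libraries. In CD27+CD69- cells 5 of 6 libraries lay above every CD11b+ library, and replicate 4, at 82.6 CPM, lay within the CD11b+ range. The library with most mitotic RNA, replicate 6 of CD27+CD69-, was also the one with most melanoma RNA. Replicates 1, 2 and 3 of that population held between 1.37 and 38.0 CPM of melanoma markers, and their mitotic sums were 454, 203 and 458 CPM. The same libraries held 3250, 11989 and 8395 CPM of fibroblast markers. The part of other cells in the mitotic sums was not tested.

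Detection followed the same order. Of the 20 mitotic genes, 11.7 ± 4.50 had a count in CD27+CD69+, 16.5 ± 2.59 in CD27+CD69-, 6.83 ± 1.72 in CD11b+CD69+ and 6.67 ± 2.42 in CD11b+CD69- libraries. With all libraries thinned to the smallest total these were 11.2, 16.2, 6.33 and 5.83 genes. Over all genes, between 12371 and 13138, 13287 and 14540, 11909 and 12132, and 11606 and 12046 had a count per library in the same populations. Detection of genes in general thus had the same order, and its part in the mitotic counts was not tested. Of the 16 S phase genes, 15.0 ± 1.10, 15.3 ± 0.816, 13.3 ± 1.03 and 13.3 ± 1.63 had a count in the same populations. All 20 mitotic genes were found together in only 2 libraries, replicate 4 of CD27+CD69+ and replicate 6 of CD27+CD69-.

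Single genes of the 2 classes also differed in how evenly they were spread. Across the 24 libraries the coefficient of variation ran from 17.3% to 162% in S phase genes, with a median of 49.4%, and from 98.5% to 291% in mitotic genes, with a median of 173%. Of the S phase genes, 10 of 16 had counts in all 24 libraries, as did the 4 genes bound to no phase. No mitotic gene did, and they were found in 7 to 23 libraries, with a median of 11.5. The highest mean lay in CD27+CD69- for 18 mitotic genes and in CD27+CD69+ for the other 2. Among S phase genes it lay in CD27+CD69+ for 8, in CD27+CD69- for 7 and in CD11b+CD69+ for 1.

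**Figure D2:**
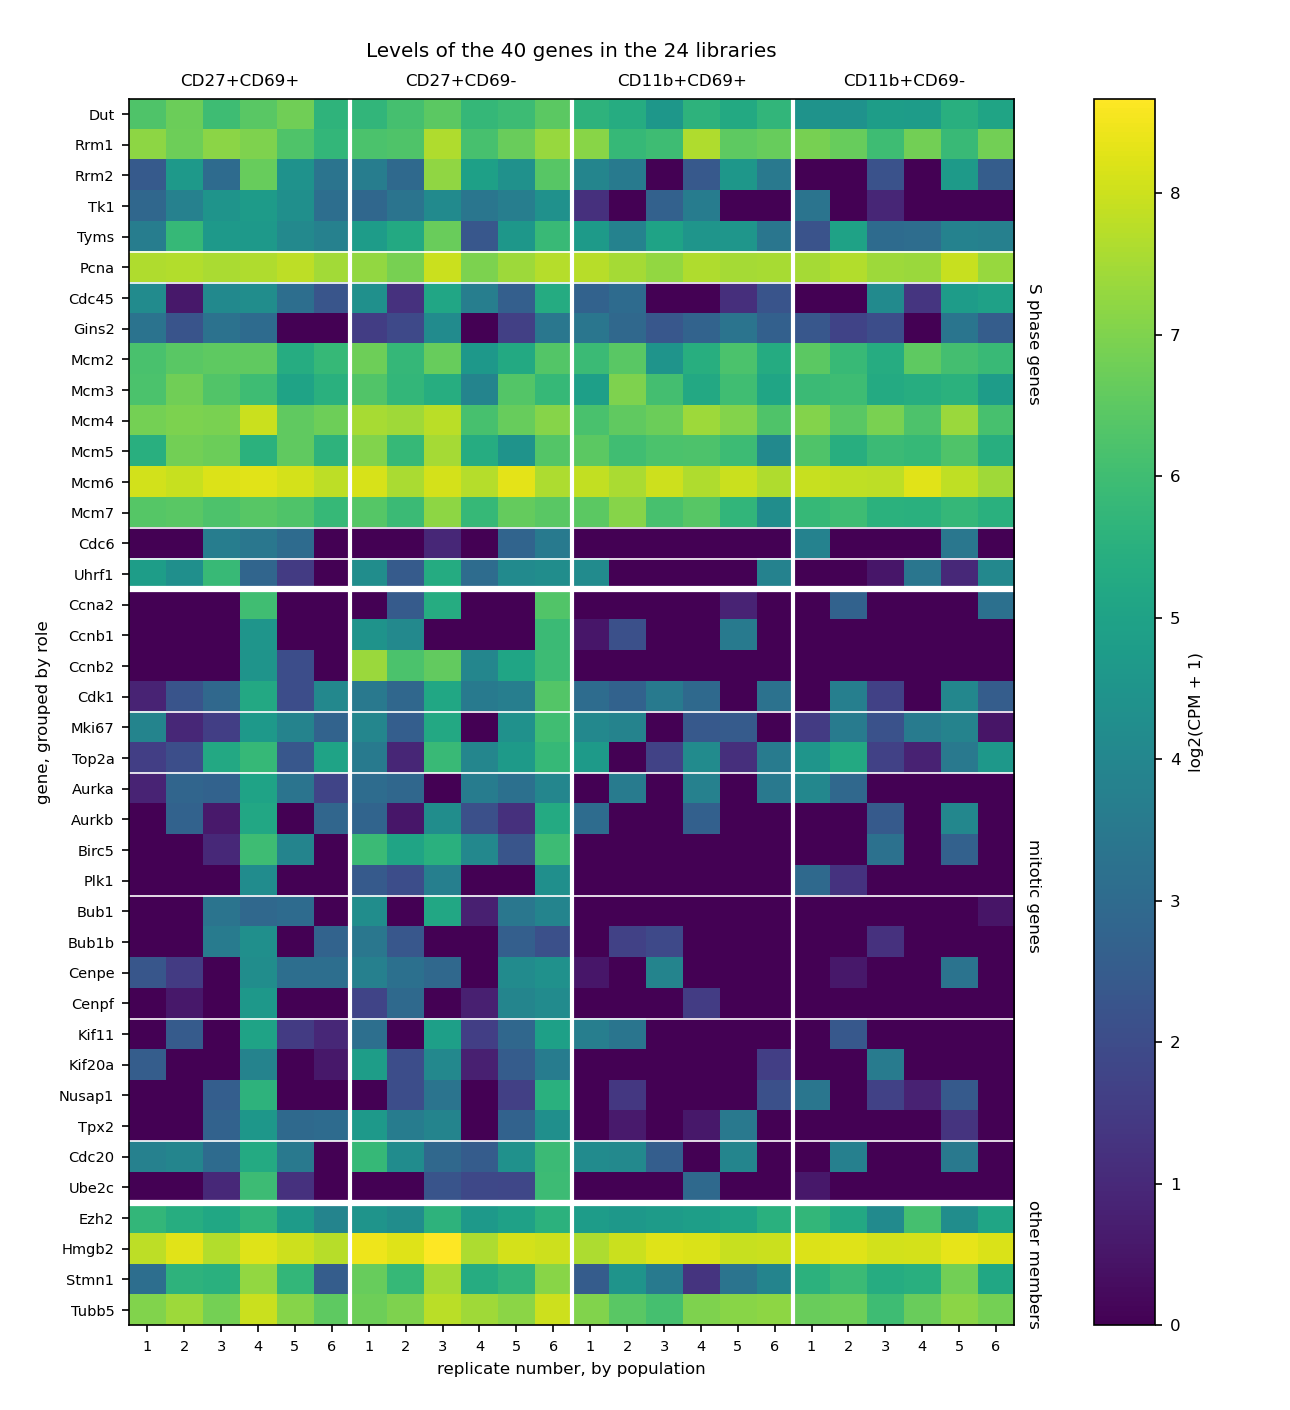
Level of each of the 40 genes, as log2(CPM + 1), in each of the 24 libraries, with genes grouped by role and libraries by population. The S phase rows for Pcna and the Mcm genes are bright in every library, while most mitotic rows are dark in CD11b+ libraries and bright in replicate 4 of CD27+CD69+ and in replicates 1, 3 and 6 of CD27+CD69-.

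Per kilobase of exon, the highest of the 40 were Hmgb2 at 91.0, Pcna at 76.9 and Mcm6 at 52.0 CPM per kilobase over all libraries. The length used merges all annotated exons of a gene and can exceed that of its transcripts, so ranks between genes are only rough. Over all libraries the highest mitotic genes were Ccnb2 at 12.6 and Cdc20 at 7.19 CPM per kilobase, and the lowest was Cenpf at 0.183. Ccnb2 ranked first among them only in CD27+CD69-, with 47.8 CPM per kilobase, and Cdc20 ranked first in CD27+CD69+, CD11b+CD69+ and CD11b+CD69-, with 7.40, 4.73 and 2.06. Ki-67, the protein most used to stain dividing cells, is encoded by Mki67, which had 1.16 CPM per kilobase.

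Among CD69- cells, 3 of 5 genes of nucleotide supply and 3 of the 13 mitotic genes tested were higher in CD27+ than in CD11b+ libraries. Of the 40 genes, 33 had enough counts to be tested, 6 of them rose and 0 fell. These were the S phase genes Dut, Tyms and Rrm2 and the mitotic genes Ccnb2, Bub1 and Tpx2. Over all 10536 genes tested, 12.4% passed in this comparison, 7.46% higher and 4.92% lower. A member could pass the filter on low counts through the CD27+ libraries alone, so shares and medians over the members tested, in this and the other comparisons, are only descriptions and lean towards the population where they are high.

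Of the 5 genes of nucleotide supply Dut, Tyms and Rrm2 rose, and Tk1 and Rrm1 did not pass. DESeq2 called the same 3 genes, while limma-voom called Dut, Rrm2 and Tk1 but not Tyms. Dut encodes dUTPase, which keeps uracil out of DNA and makes the precursor of thymidylate. It had a lowest, median and highest value of 50.8, 64.5 and 88.4 CPM in CD27+CD69- libraries, against 20.2, 27.2 and 42.8 CPM in CD11b+CD69- libraries, with no overlap. The log2 difference was 1.26 (SE 0.24, edgeR adjusted p = 0.000742, 6 of 6 libraries higher). Tyms, thymidylate synthase, had 4.06, 32.2 and 103 CPM in CD27+CD69- libraries and 3.65, 10.2 and 31.1 CPM in CD11b+CD69- libraries. These ranges overlapped widely, and 5 of 6 libraries were above the CD11b+CD69- median, with a log2 difference of 1.74 (SE 0.56, edgeR adjusted p = 0.0386). Rrm2 encodes the small subunit of ribonucleotide reductase, the subunit whose supply limits deoxynucleotide synthesis. It had 6.83, 24.4 and 148 CPM in CD27+CD69- libraries and 0, 1.78 and 25.6 CPM in CD11b+CD69- libraries. It was higher in 6 of 6 libraries, by a log2 difference of 3.14 (SE 1.06, edgeR adjusted p = 0.0495). Tyms and Rrm2 lost their calls in 7 and 8 of the 12 fits that left out 1 library, with adjusted p up to 0.169 and 0.172, both without replicate 3 of CD27+CD69-.

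Ccnb2 showed the sharpest contrast among the mitotic genes. It encodes cyclin B2, a partner of the kinase Cdk1 at entry into mitosis. Ccnb2 (ENSMUSG00000032218, chr9:70407692-70421547, minus strand, GRCm38) had 14.9, 66.5 and 163 CPM in CD27+CD69- libraries and 0 counts in all CD11b+CD69- libraries. With 864 counts against 0, and a floor of 3 counts over the 6 libraries, it was at least 346-fold higher (edgeR adjusted p = 0.000607, 6 of 6 libraries). It reached 33.0 CPM in replicate 5, the CD27+CD69- library with least fibroblast RNA, and 60.2 CPM in replicate 6, the one with most melanoma RNA. Of all 910 counts of Ccnb2, 864 lay in CD27+CD69- libraries. A pseudogene entry, Ccnb2-ps, held 10 counts.

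Bub1 and Tpx2 rose as well. Bub1 encodes a kinase of the checkpoint that holds cells until chromosomes are attached to the spindle. It had 0, 11.9 and 35.4 CPM in CD27+CD69- libraries, against 1 count in all CD11b+CD69- libraries, with 5 of 6 libraries higher. The ratio of 153 to 1 counts, scaled to library size, was 184 (95% interval 32.5 to 7304, counting error only, edgeR adjusted p = 0.00834). Tpx2 encodes a protein that activates Aurora A and starts microtubules at chromosomes. It had 0, 12.8 and 24.6 CPM in CD27+CD69- libraries and 3 counts in all CD11b+CD69- libraries. Its ratio was 56.4 (95% interval 18.9 to 277, counting error only, edgeR adjusted p = 0.0218).

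Other mitotic genes had higher means without passing the edgeR test, and limma-voom called 4 of them, Birc5, Cdc20, Cenpe and Kif20a. Birc5 (survivin, of the complex that corrects chromosome attachment) had 35.8 ± 22.9 CPM in CD27+CD69- and 2.31 ± 3.71 CPM in CD11b+CD69- libraries. Cdc20, which turns on the anaphase-promoting complex, had 27.2 ± 23.9 and 3.84 ± 5.99 CPM in these 2 populations. Cdk1, the kinase that drives mitosis, had 25.8 ± 28.8 and 5.77 ± 6.50 CPM. Mki67 had 23.2 ± 23.5 and 6.99 ± 5.71 CPM, with ranges that overlapped. The 13 mitotic genes tested had a median log2 difference of 2.77, the 16 S phase genes of 0.51 and all genes of 0.05. Ccnb2, Bub1 and Tpx2 lay above the median of 2.77 both as fitted and at their bound or ratio, so it was the same either way by construction.

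Tubb5, which encodes the beta-tubulin of dividing cells, came closest of the genes bound to no phase. It had 106, 156 and 255 CPM in CD27+CD69- libraries and 61.4, 105 and 143 CPM in CD11b+CD69- libraries. Its log2 difference of 0.68 (SE 0.24) did not pass (edgeR adjusted p = 0.0672), although 6 of 6 libraries were higher. DESeq2 called Tubb5, and limma-voom did not.

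CD27+CD69- libraries held the most fibroblast and melanoma RNA as well, and this moved with the 6 calls. With the melanoma sum as a covariate, Bub1, Ccnb2 and Dut passed. With the 3 libraries over 100 CPM of melanoma markers left out, 5 of the 6 passed, and Rrm2 did not (log2 difference 3.29, edgeR adjusted p = 0.118). With the fibroblast sum as a covariate 0 of the 6 passed (edgeR adjusted p from 0.493 for Dut to 0.996 for Rrm2). The log2 difference in that fit was 1.62 for Dut (SE 0.62), 2.03 for Tyms (SE 1.59) and 0.13 for Rrm2 (SE 2.81). Without the covariate it was 1.26 (SE 0.24), 1.74 (SE 0.56) and 3.14 (SE 1.06). Ccnb2, Bub1 and Tpx2 had 0, 1 and 3 counts in CD11b+CD69- libraries, so their fitted differences are not sizes. The fibroblast sums of CD27+CD69- and CD11b+CD69- libraries did not overlap, so in this comparison fibroblast RNA and the sort cannot be told apart.

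**Figure D3:**
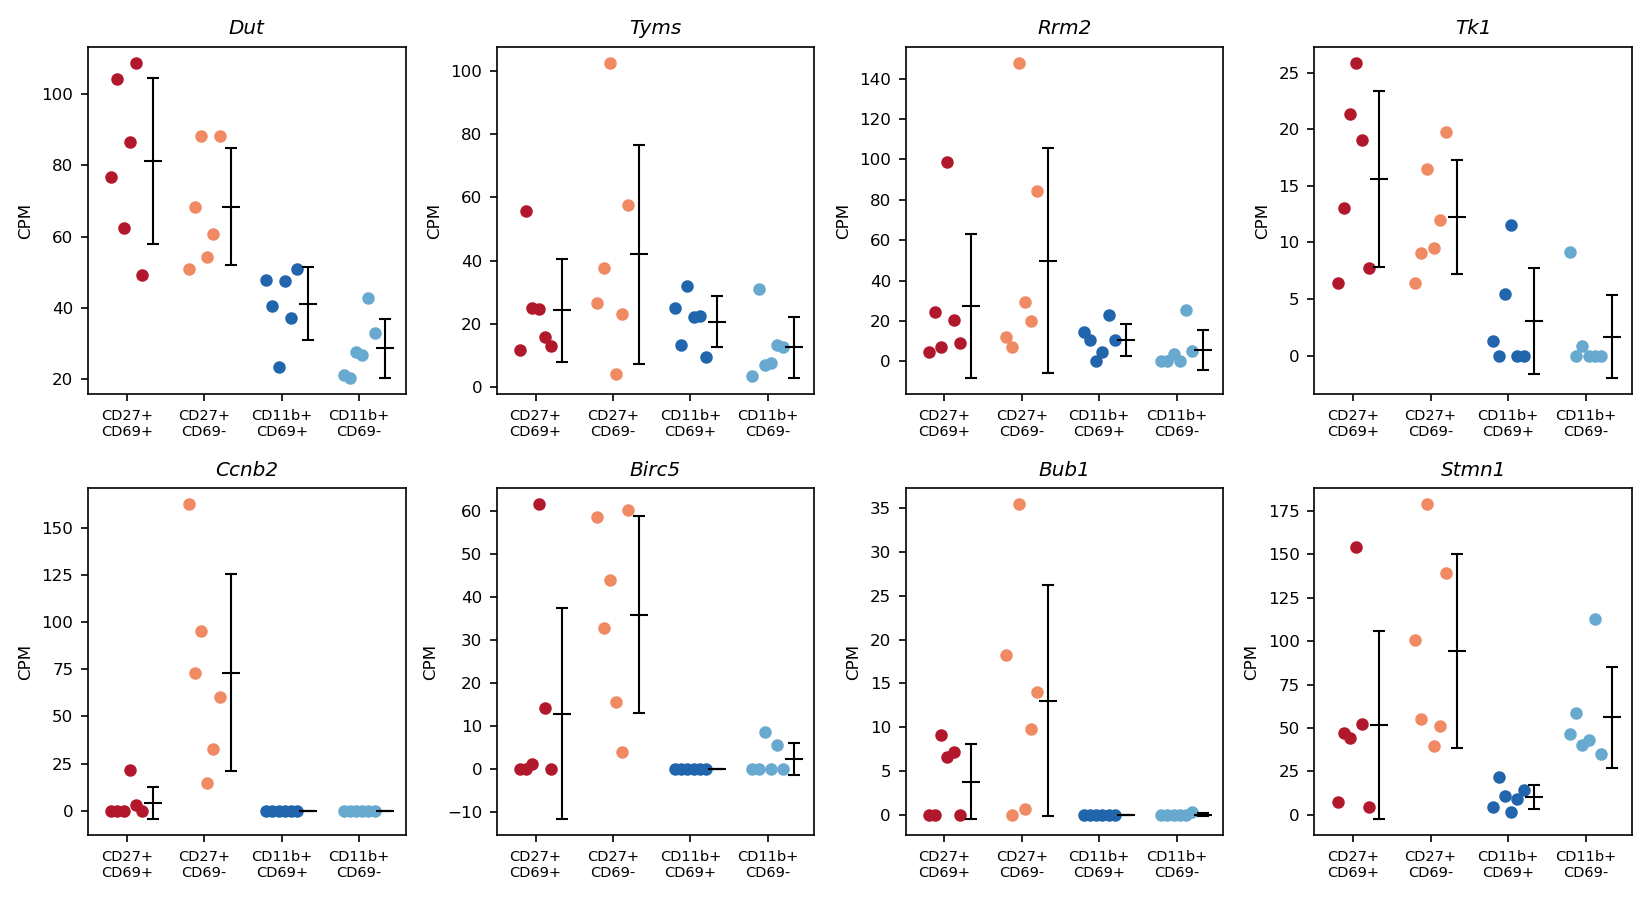
CPM per library of the nucleotide genes Dut, Tyms, Rrm2 and Tk1, the mitotic genes Ccnb2, Birc5 and Bub1, and Stmn1. Points are the 6 libraries of each population, and black bars give mean ± SD on linear axes of different range. Dut has no overlap between CD27+CD69- and CD11b+CD69- libraries, Ccnb2 is at 0 in all CD11b+ libraries, and Stmn1 has its lowest mean in CD11b+CD69+ libraries.

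Among CD69+ cells, CD27+ libraries had more Dut and more Stmn1 than CD11b+ libraries. These 2 of the 33 genes tested rose and 0 fell, where 1.9% of all genes passed, 0.987% higher and 0.911% lower. This comparison shares no library with that among CD69- cells, but in both T cell RNA and the sort cannot be told apart. Dut had 49.1, 81.6 and 109 CPM in CD27+CD69+ libraries and 23.2, 44.0 and 51.0 CPM in CD11b+CD69+ libraries. The ranges met only at their ends, and the log2 difference was 0.98 (SE 0.24, edgeR adjusted p = 0.0265, 6 of 6 libraries higher). The call was lost in 6 of 12 fits without 1 library, with adjusted p up to 0.0813 without replicate 5 of CD27+CD69+.

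Stmn1 encodes stathmin, which takes microtubules apart and is itself silenced by phosphorylation as the spindle forms. It had 4.82, 45.7 and 154 CPM in CD27+CD69+ libraries and 1.44, 10.0 and 21.6 CPM in CD11b+CD69+ libraries. Only 4 of 6 libraries were higher, and the log2 difference was 2.32 (SE 0.62, edgeR adjusted p = 0.0456). Without replicate 4 of CD27+CD69+, the library of 154 CPM, it was 1.60 with an adjusted p of 0.217, and 9 of 12 fits without 1 library lost the call. DESeq2 also called Stmn1 among CD69+ cells, and limma-voom did not.

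Several mitotic genes were at 0 counts in all CD11b+CD69+ libraries, yet none passed among CD69+ cells. Birc5 had 0, 0.508 and 61.7 CPM in CD27+CD69+ libraries, at least 50.3-fold higher, but 3 of 6 of these libraries were at 0 too (edgeR adjusted p = 0.0548). Of its 145 counts, 112 lay in replicate 4. Bub1 had 0, 3.31 and 9.14 CPM in CD27+CD69+ libraries, at least 16.0-fold higher (edgeR adjusted p = 0.0737). Ccnb2 was found in replicates 4 and 5 of CD27+CD69+, at 21.5 and 3.17 CPM. Cdc6, which loads the helicase at origins, had 0, 3.63 and 11.7 CPM in CD27+CD69+ libraries and 0 counts in CD11b+CD69+ libraries, at least 19.8-fold higher (edgeR adjusted p = 0.167). Of the 13 mitotic genes tested, 3 had an unadjusted p under 0.05, DESeq2 called 1, Birc5, and limma-voom called 0. The medians of the log2 differences were 1.41 for mitotic genes, 0.30 for S phase genes and 0.02 for all genes.

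In CD27+ cells, none of the 33 genes tested differed between CD69+ and CD69- libraries by the edgeR test. Of all genes tested 1.85% passed, 0.55% higher and 1.3% lower. Only 1 of the 33 tested, Ccnb2, had an unadjusted p under 0.05. DESeq2 called 0 and limma-voom called 1. Ccnb2 had 0, 0 and 21.5 CPM in CD27+CD69+ libraries and 14.9, 66.5 and 163 CPM in CD27+CD69- libraries, so that 5 of 6 CD69+ libraries lay below every CD69- library. The log2 difference was -4.18 (SE 1.12, edgeR adjusted p = 0.0684). It passed with limma-voom (adjusted p = 0.00159) and, with edgeR, without replicate 4 of CD27+CD69+ (log2 difference -6.71, adjusted p = 0.00229).

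The genes next to it in this comparison lay far from the threshold. Bub1 had 3.83 ± 4.28 CPM in CD27+CD69+ and 13.0 ± 13.1 CPM in CD27+CD69- libraries, with a log2 difference of -1.76 (SE 1.25, edgeR adjusted p = 0.734). Tyms had a log2 difference of -0.79 (SE 0.54, edgeR adjusted p = 0.713). Hmgb2 encodes a DNA-bending protein. It had 205, 242 and 307 CPM in CD27+CD69+ and 192, 290 and 406 CPM in CD27+CD69- libraries, with a log2 difference of -0.24 (SE 0.15, edgeR adjusted p = 0.647). Pcna, the sliding clamp, had 177, 197 and 221 CPM in CD27+CD69+ and 119, 160 and 253 CPM in CD27+CD69- libraries. Its log2 difference was 0.21 (SE 0.15, edgeR adjusted p = 0.757). The medians were -0.97 for mitotic genes, 0.01 for S phase genes and -0.01 for all genes.

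In CD11b+ cells, Stmn1 fell in CD69+ libraries and was the only 1 of the 33 genes to pass, where 2.74% of all genes did, 1.64% higher and 1.1% lower. Stmn1 (ENSMUSG00000028832, chr4:134468320-134473843, plus strand, GRCm38) had 1.44, 10.0 and 21.6 CPM in CD11b+CD69+ libraries and 34.9, 44.9 and 113 CPM in CD11b+CD69- libraries. The populations did not overlap. The log2 difference was -2.44 (SE 0.62, edgeR adjusted p = 0.0266, 6 of 6 libraries lower). The call was lost without replicate 1, 3, 4 or 5 of CD11b+CD69+ or replicate 5 of CD11b+CD69- (adjusted p from 0.0560 to 0.0808), and with limma-voom (adjusted p = 0.128). Across the 4 populations Stmn1 thus had its lowest mean in CD11b+CD69+ cells, at 10.3 ± 7.11 CPM, against 51.8 ± 54.3, 94.2 ± 55.9 and 56.1 ± 28.8 CPM in CD27+CD69+, CD27+CD69- and CD11b+CD69- cells. An exon of the small gene Gm23634 overlaps Stmn1 on the same strand.

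Further genes of this comparison did not pass. Dut had 41.2 ± 10.2 CPM in CD11b+CD69+ and 28.5 ± 8.38 CPM in CD11b+CD69- libraries, with a log2 difference of 0.53 (SE 0.24, edgeR adjusted p = 0.321, 5 of 6 libraries higher). Cdc6 had 0 counts in CD11b+CD69+ and 49 counts in 2 CD11b+CD69- libraries, at least 15.8-fold lower (edgeR adjusted p = 0.156). Birc5 had 0 counts and 30 counts in these populations, at least 9.67-fold lower (edgeR adjusted p = 0.224). Tpx2 had 27 and 3 counts, a ratio of 9.31 (95% interval 2.86 to 47.9, counting error only, edgeR adjusted p = 0.426). Most of the 27 came from replicate 5 of CD11b+CD69+. Of the 13 mitotic genes tested 0 passed and 1 had an unadjusted p under 0.05, and DESeq2 and limma-voom each called 0 of them. The medians were 0.00 for mitotic genes, 0.20 for S phase genes and 0.00 for all genes.

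No gene of the 40 showed a CD69 difference that itself differed between CD27+ and CD11b+ cells, where 0.579% of all genes did, 0.237% higher and 0.342% lower. DESeq2 and limma-voom also called 0 of the 33, and 1, Cdc6, had an unadjusted edgeR p under 0.05 (adjusted p = 0.353). The difference of the log2 differences was -1.51 for Tyms (SE 0.77, edgeR adjusted p = 0.567), 1.57 for Stmn1 (SE 0.83, edgeR adjusted p = 0.582), -3.58 for Tpx2 (SE 1.92, edgeR adjusted p = 0.599) and 3.83 for Birc5 (SE 2.31, edgeR adjusted p = 0.689). Those for Tpx2, Birc5 and Cdc6 include populations with 0 to 3 counts and are not sizes. For Tyms the CD69+ mean was below the CD69- mean in CD27+ cells, at 24.3 and 42.0 CPM, and above it in CD11b+ cells, at 20.7 and 12.6 CPM.

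**Figure D4:**
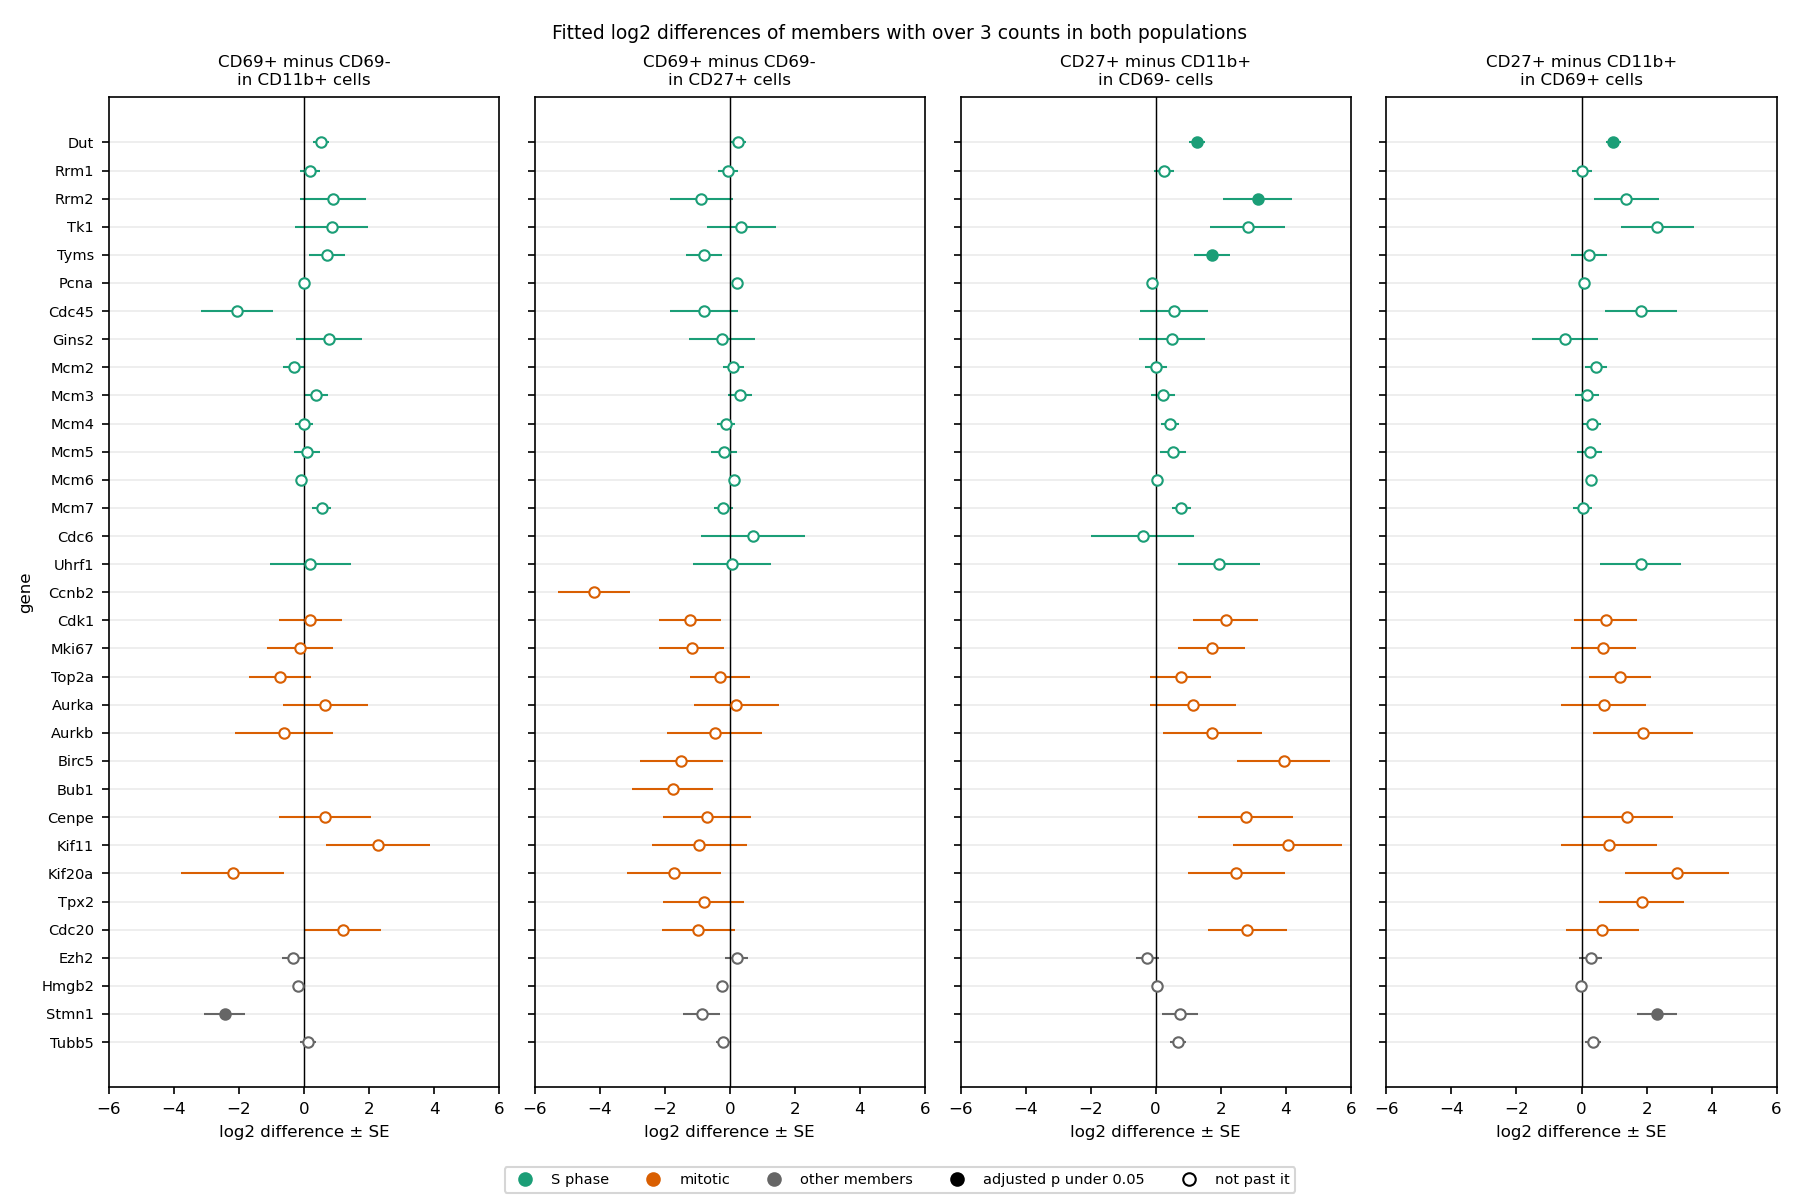
Fitted log2 differences (points) with their SE (lines) in the 4 comparisons of 2 populations, for members with more than 3 counts in both populations. Filled points passed an edgeR adjusted p of 0.05 over all genes, which holds for Stmn1 in CD11b+ cells, for Dut, Rrm2 and Tyms among CD69- cells and for Dut and Stmn1 among CD69+ cells. Genes with 3 or fewer counts in a population, such as Ccnb2 among CD69- cells, have no point.

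No gene of the replicative helicase passed, and the ranges of the populations overlapped. Its 6 ring subunits are encoded by Mcm2 to Mcm7, and its activators Cdc45 and Gins2 complete the working complex. Mcm6 had 270 ± 31.8 CPM in CD27+CD69+, 244 ± 55.1 CPM in CD27+CD69-, 222 ± 30.1 CPM in CD11b+CD69+ and 235 ± 45.3 CPM in CD11b+CD69- libraries. Mcm4 had 135 ± 57.9, 146 ± 55.8, 108 ± 37.3 and 108 ± 36.9 CPM in the same populations, and Mcm5 had 74.3 ± 32.2, 84.0 ± 59.5, 62.7 ± 24.8 and 58.6 ± 15.8 CPM. In all 3 the libraries of the populations overlapped. The activators were rarer, and Cdc45 had 10.6 ± 7.64, 18.6 ± 15.5, 2.97 ± 3.04 and 12.5 ± 13.8 CPM. Mcm7 had 76.7 ± 11.3, 87.8 ± 33.1, 74.6 ± 39.4 and 50.7 ± 7.18 CPM, and exons of Ap4m1, Cops6 and 2 microRNA genes overlap it. In the 5 comparisons 0 of the 8 helicase genes passed by edgeR, DESeq2 or limma-voom, and 1, Mcm7, had an unadjusted edgeR p under 0.05, among CD69- cells. There the fitted difference was above 0 for 8 of 8 helicase genes, with a median log2 difference of 0.47, and among CD69+ cells for 7 of 8, with a median of 0.26.

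Of the other S phase genes, Tk1 and Uhrf1 were scarcer and patchier than the Mcm genes, while Rrm1 was not. Tk1, thymidine kinase of the salvage route, had counts in all 12 CD27+ libraries and in 5 of 12 CD11b+ libraries. Its means were 15.6 ± 7.78 CPM in CD27+CD69+, 12.2 ± 5.04 CPM in CD27+CD69-, 3.05 ± 4.66 CPM in CD11b+CD69+ and 1.67 ± 3.67 CPM in CD11b+CD69- libraries. In both comparisons of CD27+ with CD11b+ libraries limma-voom called Tk1, while edgeR and DESeq2 did not. Uhrf1, which guides DNA methylation onto the new strand, had 18.3 ± 21.2, 17.5 ± 12.4, 5.10 ± 8.01 and 4.43 ± 6.60 CPM, with libraries that overlapped. Rrm1, the large subunit of ribonucleotide reductase, had 108 ± 37.2, 113 ± 53.0, 107 ± 53.8 and 93.6 ± 26.5 CPM. Of the 2 subunits of this enzyme, Rrm1 was found in all 24 libraries and Rrm2 in 20.

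The 7 mitotic genes left out by the filter on low counts were the cyclins Ccna2 and Ccnb1, the kinases Plk1 and Bub1b, the kinetochore gene Cenpf, the spindle gene Nusap1 and the ubiquitin carrier Ube2c. They were found in 7 to 12 of the 24 libraries. Ccna2 had 115 counts in 1 CD27+CD69+ library, 190 in 3 CD27+CD69- libraries, 2 in CD11b+CD69+ and 32 in 2 CD11b+CD69- libraries. Ccnb1 had 148 counts in 3 CD27+CD69- libraries and 0 in CD11b+CD69- libraries, while its relative Ccnb2 had counts in all 6 CD27+CD69- libraries. Plk1, a kinase of centrosomes and kinetochores, had 32 counts in CD27+CD69+, 65 in CD27+CD69-, 0 in CD11b+CD69+ and 18 in CD11b+CD69- libraries. Ube2c, which feeds the anaphase-promoting complex, had 43.5% of its summed CPM in replicate 4 of CD27+CD69+. For 15 of the 20 mitotic genes the highest library was either that one or replicate 6 of CD27+CD69-.

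Top2a was found in 23 of 24 libraries, more than any other mitotic gene, and Mki67 in 21. Top2a encodes topoisomerase II alpha, which untangles sister chromosomes. It had 22.1 ± 22.4 CPM in CD27+CD69+, 27.3 ± 23.6 CPM in CD27+CD69-, 9.60 ± 10.3 CPM in CD11b+CD69+ and 16.0 ± 14.1 CPM in CD11b+CD69- libraries. Mki67 had 10.2 ± 9.08, 23.2 ± 23.5, 6.39 ± 6.78 and 6.99 ± 5.71 CPM in the same populations. Both overlapped between all populations. Ezh2, the methyltransferase of the Polycomb repressive complex, showed no such order, with 36.3 ± 14.5, 31.5 ± 12.7, 29.9 ± 7.32 and 37.6 ± 20.0 CPM.

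Further genes of the cell cycle were taken from lists of 50 replication genes, 60 mitotic genes, 19 transcription regulators of the cycle, and 14 cyclins of G1 and CDK inhibitors. Among CD69- cells, 3 of 41 further mitotic genes tested were higher in CD27+ libraries and 0 lower, a share near the 7.46% of all genes that were higher. Their median log2 difference was 0.99, against 0.05 over all genes. A gene of these lists could also pass the filter on low counts through the CD27+ libraries alone, so such shares and medians are only descriptions. Cks1b, a small subunit that docks on cyclin-dependent kinases, had 40.1 ± 21.6 CPM in CD27+CD69- and 9.02 ± 8.17 CPM in CD11b+CD69- libraries (log2 difference 2.15, SE 0.54, edgeR adjusted p = 0.00787). Cenpa, the histone of centromeres, had 107 ± 32.0 and 55.3 ± 18.3 CPM (log2 difference 0.95, SE 0.27, edgeR adjusted p = 0.0163). Of 45 further replication genes tested 0 passed, 5 had an unadjusted p under 0.05, and DESeq2 and limma-voom each called 1. Of 14 regulators tested 0 passed, 1 had an unadjusted p under 0.05, and DESeq2 and limma-voom each called 1.

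In the list of G1 cyclins and CDK inhibitors, Ccnd2 and Ccnd3 fell in CD27+ libraries. Cyclins D2 and D3 start the cycle by binding Cdk4 and Cdk6. Among CD69- cells 1 of the 9 genes tested of this list rose and 3 fell, against 7.46% higher and 4.92% lower over all genes, and 5 were fitted above 0 and 4 below. Ccnd3 had 286 ± 65.2 CPM in CD27+CD69- and 789 ± 136 CPM in CD11b+CD69- libraries (log2 difference -1.46, SE 0.14, edgeR adjusted p = 4.17e-08, 6 of 6 libraries lower). Ccnd2 had 555 ± 191 and 1175 ± 130 CPM in them (log2 difference -1.08, SE 0.14, edgeR adjusted p = 4.58e-06). Among CD69+ cells Ccnd3 was the 1 gene of the list to fall, with 312 ± 42.3 CPM in CD27+CD69+ and 462 ± 36.3 CPM in CD11b+CD69+ libraries (log2 difference -0.56, SE 0.14, edgeR adjusted p = 0.0215). In CD11b+ cells it was lower in CD69+ libraries, with 462 ± 36.3 CPM in CD11b+CD69+ and 789 ± 136 CPM in CD11b+CD69- libraries and a log2 difference of -0.77 (SE 0.13, edgeR adjusted p = 0.000860). Its CD69 difference was higher by 0.90 in CD27+ than in CD11b+ cells (SE 0.19, edgeR adjusted p = 0.0234).

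Ccne1 encodes cyclin E1, which drives entry into S phase. It was at 0 counts in all CD11b+CD69+ libraries and had 5.45 ± 4.07 CPM in CD11b+CD69- libraries (edgeR adjusted p = 0.0302) and 10.7 ± 10.7 CPM in CD27+CD69+ libraries (edgeR adjusted p = 0.0149). It was the 1 of 45 further replication genes to pass in each of these 2 comparisons, which share the CD11b+CD69+ libraries and in which 2.74% and 1.9% of all genes passed, so that 1 of 45 is near the background. In CD27+ cells, 0 of the genes tested from the 4 lists differed with CD69 by the edgeR test. There 0 of the replication genes, 1 of the mitotic genes, 0 of the regulators and 3 of the G1 genes had an unadjusted p under 0.05, DESeq2 called 1 mitotic gene, and limma-voom called 0.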

How the data were processed

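The deposited values are raw counts for Ensembl genes in 24 libraries made with the SMART-Seq v4 and Nextera XT kits per the labels' protocols. These kits keep no strand and add no molecular identifiers, so copies made by amplification cannot be told from separate molecules. The intervals and floors take in counting error only and leave out the larger spread between libraries. The submitters' processing notes name GRCm38, HTSeq and Picard. Which aligner, annotation release and strand setting were used was not given in the sources used here. Counts came in 53471 rows, or 53465 gene identifiers once repeats were removed, and 0 columns were left unused.

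The edgeR 4.0.16 quasi-likelihood test (R 4.3.3) was fitted as 1 model of 4 population means to 10536 genes kept by filterByExpr (minimum count 10), with TMM factors from 0.958 to 1.06 and Benjamini-Hochberg adjustment over all of them at 0.05. Members were tested as rows of that fit. A library counts as higher or lower by comparison with the other population's median. A population at 0 was given a floor of 3 counts over its 6 libraries. Where it had 1 to 3 counts, the ratio carries a 95% interval. Replicate pairs differed by far more than counting error (chi-square per degree of freedom from 10.3 to 32.2 over 60 pairs). On simulated counts with 200 changed genes among the 10536, in the CD11b+ comparison, edgeR recovered 71 of 100 genes changed by a log2 size of 2 and 81 of 100 changed by 3, with 7 false calls. Positions and exons are from GENCODE M21. Exons of 13 members overlap another gene, and 5 members have entries named as copies, which held 0 to 75 counts.

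The 40 members, their classes and the further lists were chosen with earlier results of these data known. The differences given with a test are those of members past the threshold and, in each comparison, of the 2 S phase, 2 mitotic and 1 other member with the smallest p, plus up to 2 genes past the threshold of each further list. Levels may be given for any member. Alternatives were RLE factors, DESeq2 1.42.0, limma-voom (limma 3.58.1), no filter, a replicate block, melanoma and fibroblast sums as covariates, fits to 2 populations, each library left out, and, chosen after seeing the data, the 3 libraries over 100 CPM of melanoma markers left out.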

Additional observations from a re-analysis of the deposited data

Results flagged for a closer look

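In 13 of 56 sets of 6 libraries, each 1 gene or class sum in 1 population, the highest library lay far from the next one (Dixon's test at 95%). For separate sets of normally distributed values this test flags about 1 in 20. The sets here share libraries and some hold zeros, so the number of flags cannot be judged against that rate.

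Of these, 6 were replicate 4 of CD27+CD69+, with 652 CPM summed over the mitotic genes, 61.7 CPM of Birc5, 21.5 CPM of Ccnb2, 98.6 CPM of Rrm2, 154 CPM of Stmn1 and 23.1 CPM of Tpx2. That library had 58.4 CPM of melanoma markers, where the population ranged from 0.454 to 66.0 CPM. In the same population Tyms reached 55.6 CPM in replicate 2.

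In CD11b+CD69+ cells Tpx2 reached 10.4 CPM in replicate 5. In CD11b+CD69- cells replicate 5 had 25.6 CPM of Rrm2, 113 CPM of Stmn1 and 1.48 CPM of Tpx2, replicate 2 had 31.1 CPM of Tyms, and replicate 6 had 0.410 CPM of Bub1, which is 1 count.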

How the results depend on the processing

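Over all genes, DESeq2 called 483 in CD11b+ cells, 316 among CD69+ cells and 169 for the difference of differences, against 289, 200 and 61 with edgeR. With no filter 188 were called in CD11b+ and 405 in CD27+ cells, and limma-voom called 293 in CD27+ cells. The melanoma covariate gave 114 in CD27+ cells, 569 among CD69- cells and 26 for the difference of differences, and the fibroblast covariate gave 0, 44 and 1. Without the melanoma-rich libraries the last count was 33. Leaving out 1 library gave 121 to 393 in CD27+ cells and 37 to 107 for the difference of differences. Of the members, limma-voom called 0 in CD11b+ cells, 1 in CD27+ cells and 10 among CD69- cells. No filter left 0 in CD11b+ cells and 0 among CD69+ cells. Among CD69- cells the melanoma covariate left 3 and the fibroblast covariate 0. Among CD69+ cells 1 was called with the melanoma covariate, with the fibroblast covariate, in the fit to 2 populations and without the melanoma-rich libraries. Leaving out 1 library gave 0 to 1 member in CD11b+, 0 to 1 in CD27+ cells and 0 to 3 among CD69+ cells. The cause was not tested, except that covariates that follow a population take up its differences by construction. The sign turned for Tpx2 in CD11b+ cells without replicate 5 of CD11b+CD69+ (-0.20, the lowest value with 1 library left out, the highest being 5.08 without replicate 5 of CD11b+CD69-) and for Birc5 in the difference of differences with limma-voom (-2.51). Replicate numbers are shared by the populations, but 1 of 36 same-numbered pairs correlated above 0.1 and 4 of 24 libraries correlated best with their own number, so they were not used as pairs. With the replicate block 0 members were called in CD11b+ cells and 0 among CD69+ cells. Of the recomputed values of the member differences given with a test, 542 kept their direction and side of the threshold, or moved by less than 1.5 times or 1 SD. Another 61 were weaker, 9 were stronger and 2 were reversed. Stmn1 among CD69+ cells was called in 5 of 21 alternatives. Among CD69- cells Rrm2 was called in 8 of 21 and Tyms in 10 of 21. Genes under 3 counts, or 1.15 to 2.47 CPM in a library, are at the limit of this depth.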
